A study of Mus musculus with 8 samples.

Results

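TRAV1 and TRAV2, the V genes at the far 5′ end of the mouse T cell receptor alpha locus, were compared with TRAV17, TRAV19 and TRAV21, which lie at the end of the V gene array near the joining (TRAJ) segments, in single-cell TCR data of CD8+ T cells. Members were all cell barcodes not marked as multiplets whose primary TRA chain was assigned to one of these 5 genes. They numbered 4559 of 107882 barcodes with a TRA chain, or 4.23%. The distal end (TRAV1 and TRAV2) had 1097 barcodes, of which TRAV1 had 62 and TRAV2 had 1035. The proximal end had 3462, with 771 for TRAV17, 1294 for TRAV19 and 1397 for TRAV21.

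The study used C57BL/6 mice that all carry loxP-flanked Pdcd1 alleles (Pdcd1fl/fl). Those labelled Pdcd1 cKO also carry the E8I CD8-Cre transgene, which deletes Pdcd1 (PD-1) in CD8+ cells, and animals were either at baseline (thymus and spleen) or bore B16-OVA or B16-F10 melanomas (thymus and tumor). The 8 sequenced libraries are sublibraries, each a mixture of all animals, and their labels give no animal, tissue or genotype. The 14 tables are named for 7 animals, each with a thymus table and a spleen (2 animals) or tumor (5 animals) table. Genotype and tumor model could not be assigned to an animal from the labels, so no genotypes were compared and tissues are described without a test. CD8+ T cells of thymus and spleen came from a CD8a+ T cell isolation kit. Those of tumors came from CD8 (TIL) microbeads, after digestion of the tumor and removal of dead cells. Tissue and isolation method thus cannot be told apart between thymus and tumor. The tables list TRA and TRB chains only.

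A TRA chain is made in the thymus when the RAG recombinase joins one TRAV gene to one TRAJ segment. The TRAJ segments are numbered from TRAJ61, nearest to the V genes, down to TRAJ1, nearest to the constant region. A first join can be replaced on the same chromosome by joining a V gene further upstream to a TRAJ further downstream, until positive selection stops recombination. Both chromosomes recombine, so a T cell can carry 2 TRA chains. The TCR delta segments lie inside the alpha locus, between the V genes and TRAJ61, and some V genes serve both chains. TRAV21 is one of these and is listed in the GRCm39 annotation as Trav21-dv12.

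All 5 genes lie on the plus strand of chromosome 14 (GRCm39). Trav1 spans chr14:52665385-52666333 and Trav2 chr14:52804655-52805508. Their ends lie 1726 kb and 1587 kb upstream of Traj61, whose segment starts at 54392462. Trav17 spans chr14:54044096-54044572, Trav19 chr14:54082691-54083284 and Trav21-dv12 chr14:54113441-54114209. These 3 end 348 kb, 309 kb and 278 kb before Traj61. In each gene the last exon ends where the coding V segment ends, and the recombination signal read by RAG follows at the next base. The signals are shown because they are the sites at which the 5 genes are cut. Capitals mark the heptamer and the nonamer, with the spacer in lower case.
TRAV1: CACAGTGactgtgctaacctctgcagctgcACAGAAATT
TRAV2: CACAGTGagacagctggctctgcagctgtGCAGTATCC
TRAV17: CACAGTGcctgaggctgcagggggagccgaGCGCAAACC
TRAV19: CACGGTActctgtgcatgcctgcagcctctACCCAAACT
TRAV21: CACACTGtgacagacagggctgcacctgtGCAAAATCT

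The consensus heptamer CACAGTG followed TRAV1, TRAV2 and TRAV17, as it did 93 of 110 annotated TRAV genes (84.6%), read on the coding strand directly after the V segment. TRAV19 matched it at 5 of 7 bases and TRAV21 at 6 of 7. Spacers of 22 to 24 bases were tried, keeping the one whose nonamer best matched ACAAAAACC. A spacer of 22 bases was the best in 2 of the 110 genes, TRAV2 and TRAV21, and 23 bases in 105. The nonamer matched at 5 of 9 bases in TRAV2 and at 6 of 9 in the other members, against a median of 7 over the 110 genes. These matches describe the sequence and were not set against usage.

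TRAV21 chains of another kind had to be separated before the ends could be compared. Among barcodes called TRAV21, 464 of 1397 (33.2%) had a CDR3 that ended in the residues DKLVF, which are encoded by the TCR delta joining segment Trdj1 and by none of the other 46 J segments of the locus that were translated. The files called these chains TRAJ22 (420 barcodes), TRAJ34 (43 barcodes) or TRAJ23 (1 barcode). The germline segments are shown for this comparison, with the last 15 bases that code for the CDR3 in capitals. Trdj1 lies at chr14:54360595-54360645, Traj22 at chr14:54434705-54434764 and Traj34 at chr14:54422156-54422213, all on the plus strand.
Trdj1: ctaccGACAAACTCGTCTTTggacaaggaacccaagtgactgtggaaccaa
Traj22: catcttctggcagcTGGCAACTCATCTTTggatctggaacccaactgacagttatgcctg
Traj34: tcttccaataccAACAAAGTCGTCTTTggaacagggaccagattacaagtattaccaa

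The nucleotides bore this out in every barcode for which an assembled chain could be matched. All 1235 barcodes with the DKLVF end that had an assembled chain, 401 of them TRAV21, carried the 15 Trdj1 bases. In 371 of the 401, the remaining 46 bases of Trdj1 from that point were present without a mismatch. The assembled chain went on into the first Trdc exon in 268 and into the genomic sequence just after Trdj1 in 69. A constant gene call was present in 1 of the 401, against 82.3% of the 741 other TRAV21 chains. Their median identity to the called J segment was 83.9%, against 100% in the other TRAV21 chains.

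At least 8 consecutive bases of the delta diversity segment Trdd2, which is 16 bases long, were found in 83.3% of these CDR3s and in 5.13% of the CDR3s of the other TRAV21 chains. The nucleotide CDR3 seen in most animals among them (4 barcodes, 1 in each of 4 animals) is given with its V-encoded start and Trdj1-encoded end in capitals. The 25 bases between them hold a run of 12 bases of Trdd2 (chr14:54359683-54359698), which is shown for comparison.
TRAV21-TRDJ1: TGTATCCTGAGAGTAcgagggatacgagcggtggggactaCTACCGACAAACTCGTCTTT
Trdd2: atcggagggatacgag

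Chains of this kind thus carried delta segments and were listed in the TRA column. Outside TRAV21 they were 5 of 771 barcodes of TRAV17 and 0 of TRAV1, TRAV2 and TRAV19. For the 1035 barcodes of TRAV2 a count of 0 allows a share of up to 0.29%, and for the 1294 of TRAV19 up to 0.232%. Over all V genes there were 1451, and TRAV15-1 (440 of 637 barcodes) and TRAV15D-1 (386 of 563) held most of the rest. Among barcodes with a matched assembled chain, a further 6 member chains ended in the 15 bases of Trdj2 and were kept. Leaving out the TRDJ1-ending chains was a step added after the values were seen, and each sentence below says where it was done.

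The share of TRAV21 barcodes that ended in TRDJ1 was higher in the thymus table than in the second table of all 7 animals. In the 7 thymus tables it ranged from 39.01% to 57.1% with a median of 46.0%. In the 5 tumor tables it ranged from 7.65% (13 of 170, 95% exact Clopper-Pearson interval 4.13 to 12.7%) to 32.1%, with a median of 13.8%. The 2 spleen tables had 19.2% and 37.8% (17 of 45, interval 23.8 to 53.5%), so the thymus tables all lay above every spleen and tumor table. These intervals cover counting error only. Tumor cells were isolated by another method than thymus cells, so tissue and method cannot be told apart in that contrast. The pattern was not confined to TRAV21. Over all V genes, TRDJ1-ending chains made up 2.1% to 3.13% of TRA barcodes in the thymus tables and 0.375% to 1.16% in the spleen and tumor tables. A TRB chain was found in 51.3% of the TRAV21 barcodes that ended in TRDJ1 and in 61.95% of the other TRAV21 barcodes. A second TRA chain was found in 8.41% and 18.2%. Most of the TRDJ1-ending barcodes were from the thymus (374 of 464), and within the thymus tables a TRB chain was found in 61.2% and 66.6% and a second TRA chain in 8.56% and 15.8%. Their CDR3s averaged 17.6 ± 2.68 residues (SD over barcodes), against 14.9 ± 1.93 in the other TRAV21 barcodes. Whether the barcodes are gamma delta T cells, precursors or alpha beta T cells that kept a delta join was not tested, since the tables hold no TRG or TRD chains.

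**Figure D1:**
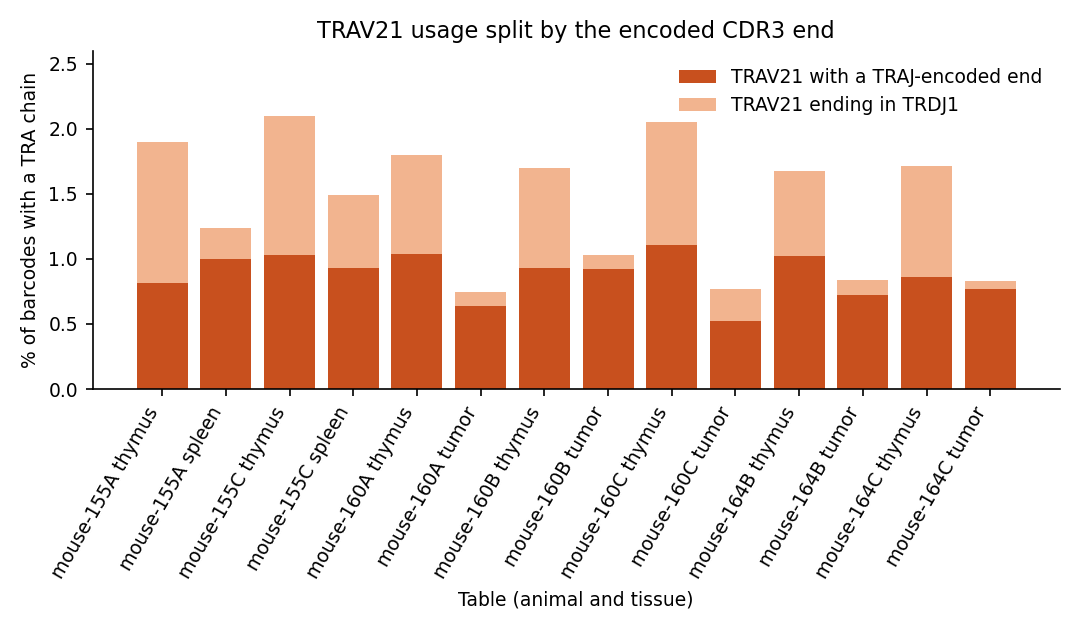
TRAV21 barcodes as a percent of all barcodes with a TRA chain in each of the 14 tables. They are split into chains ending in TRDJ1 (pale) and all other TRAV21 chains (dark, labelled as having a TRAJ-encoded end). The pale part makes up 39.01% to 57.1% of the bar in the thymus tables and 7.65% to 37.8% in the spleen and tumor tables.

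The locus ends joined to different parts of the TRAJ array, the distal end mostly to its middle and the proximal end to its 5′ part. Counting each distinct chain (V, J and CDR3 residues) once per table, the mean TRAJ number was 22.8 ± 9.59 (SD over 657 chains) at the distal end and 43.4 ± 13.2 (2860 chains) at the proximal end. The other TRAV genes averaged 28.5 ± 13.9 over 64259 chains. Without the TRDJ1-ending chains, the proximal mean was 47.1 ± 10.7 over 2415 chains. Of the proximal chains left, 78.5% used TRAJ61 to TRAJ42, the third of the numbers nearest to the V genes, against 3.04% of distal chains and 21.6% of the others. TRAJ41 to TRAJ22 took 58.0% of distal, 18.4% of proximal and 48.2% of other chains. TRAJ21 to TRAJ1, the third nearest to the constant region, took 38.96% of distal, 3.06% of proximal and 30.2% of other chains.

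The 7 animals all showed these differences. Within-table differences were averaged per animal, and they were tested with an exact two-sided sign-flip test whose smallest p with 7 animals is 0.0156. The distal mean lay below the proximal one, with a difference of -19.5 ± 2.07 TRAJ numbers (SD, n = 7 animals, range of the differences -22.1 to -17.4, exact p = 0.0156). Benjamini-Hochberg adjustment over the 8 tests of this kind gave 0.03125. Distal chains minus the other TRAV genes gave -5.52 ± 0.821 (n = 7, same exact p and adjusted p). Proximal chains lay 14.3 ± 1.5 above them (n = 7, same exact p and adjusted p). Without the TRDJ1-ending chains the 3 differences were -23.8 ± 1.17, -5.62 ± 0.815 and 18.5 ± 0.386, with the same exact p. The tumor table of mouse-160A, with 7 distinct distal chains, fell under the minimum of 10 and gave no distal difference. When at least 2 TRA transcripts were required or any 1 animal was left out, all 3 kept their direction, with an adjusted exact p of 0.0625. Nothing in the labels says how animals with and without Pdcd1 are spread over the 7.

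**Figure D2:**
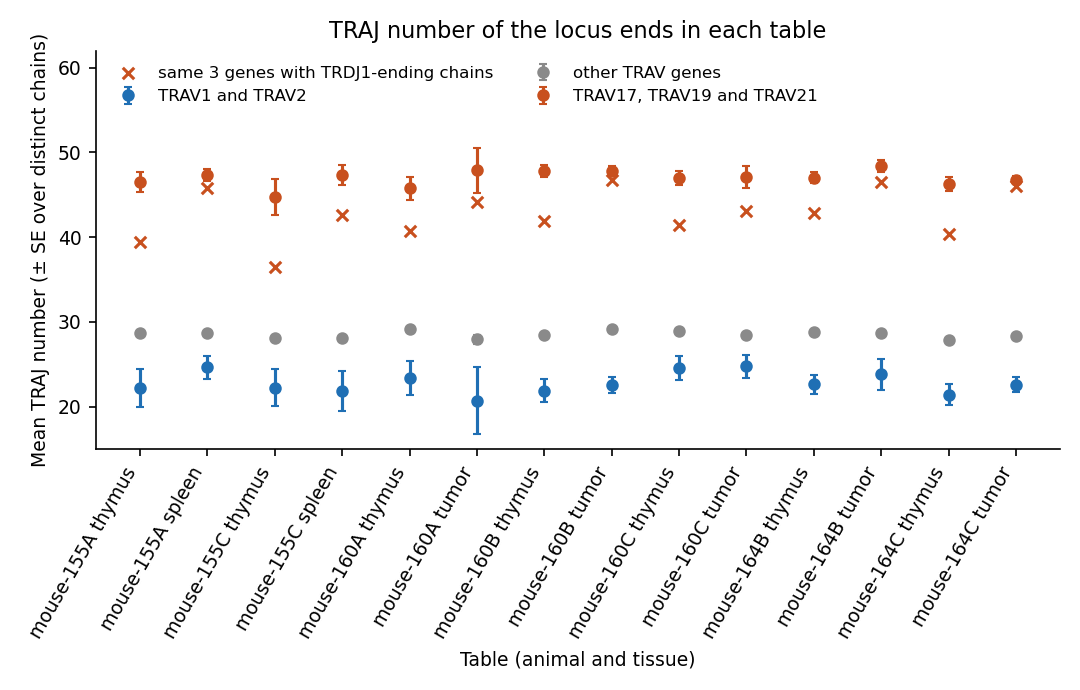
Mean TRAJ number of distinct chains in each table for TRAV1 and TRAV2 (blue), TRAV17, TRAV19 and TRAV21 (orange) and other TRAV genes (grey), with the TRDJ1-ending chains left out and bars for the standard error over chains. Crosses give the proximal mean with those chains kept. Distal means lie between 20.7 and 24.7, other genes between 27.9 and 29.2 and proximal means between 44.7 and 48.4.

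Between tissues, the TRAJ numbers of each end lay close together once the delta joins were set aside. The distal mean was lowest in the mouse-160A tumor table (20.7, 7 chains), had a median of 22.6 over the 14 tables and was highest in the mouse-160C tumor table (24.7, 19 chains). It was higher in the second tissue than in the thymus in 5 of 7 animals. The proximal mean ranged from 44.7 in the mouse-155C thymus table (39 chains) to 48.4 in the mouse-164B tumor table, with a median of 47.1. The second tissue was higher than the thymus in 6 of 7 animals and equal to it at 2 decimals in mouse-160B, by a median of 0.79 and at most 2.62. TRAV21 alone was higher in the second tissue in 6 of 7 animals, with a median difference of 2.59 and a largest of 8.03. The largest was in mouse-155C, with 14 TRAV21 chains in the thymus and 25 in the spleen. TRAV17 was higher there in 5 of 7 animals and TRAV19 in 3 of 7. With the TRDJ1-ending chains kept, the proximal mean was 36.5 to 46.7 and the second tissue lay above the thymus in 7 of 7 animals, by a median of 4.83.

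Within each end the genes were close but not identical. TRAV2 averaged TRAJ number 22.7 ± 9.63 over 621 distinct chains, and TRAV1 averaged 23.5 ± 8.98 over 36. TRAV1 thus rests on few chains, and none of them used TRAJ61 to TRAJ42. At the proximal end TRAV19 had the highest mean, 48.4 ± 9.77 over 976 chains. TRAV21 had 47.6 ± 10.6 over 793 chains without the TRDJ1-ending ones and 38.9 ± 14.6 over 1233 with them. TRAV17, the furthest upstream of the 3, had 44.5 ± 11.6 over 646 chains. The share using TRAJ61 to TRAJ42 was 83.6% for TRAV19, 82.1% for TRAV21 and 66.6% for TRAV17. Over the 14 tables the ranges were 47.5 to 51.3 for TRAV19, 39.3 to 49.7 for TRAV21 and 39.6 to 46.9 for TRAV17. All tables of TRAV17 thus lay below all tables of TRAV19, and TRAV21 overlapped both. The lowest TRAV21 mean (mouse-155C thymus) rested on 14 chains and the highest (mouse-160A tumor) on 9.

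Across the locus the mean TRAJ number followed the position of the V gene. All 82 TRAV gene names of the tables matched a GRCm39 gene, and 54 had at least 200 distinct chains after the TRDJ1-ending ones were left out. TRAV19, TRAV21 and TRAV17 ranked 1, 2 and 4 of these 54 by mean TRAJ number, and TRAV2 ranked 42. Over the 54 genes Pearson's r with the distance to TRAJ61 was -0.80 and Spearman's rho was -0.85. The relation was not even along the locus. Among the 24 genes within 700 kb of TRAJ61, a limit chosen after the values were seen, r was -0.97 and means ran from 26.8 to 48.4. Among the 30 genes further away, r was -0.23 and means stayed between 21.1 and 25.9. Genes of one cell library share its cells and depth, so these correlations are descriptions. Many D and N copies, near-identical duplicates of V gene blocks, lie in the middle of the locus, and how their reads were assigned is uncertain. Without these copies r was -0.76 and rho was -0.98 over 33 genes.

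**Figure D3:**
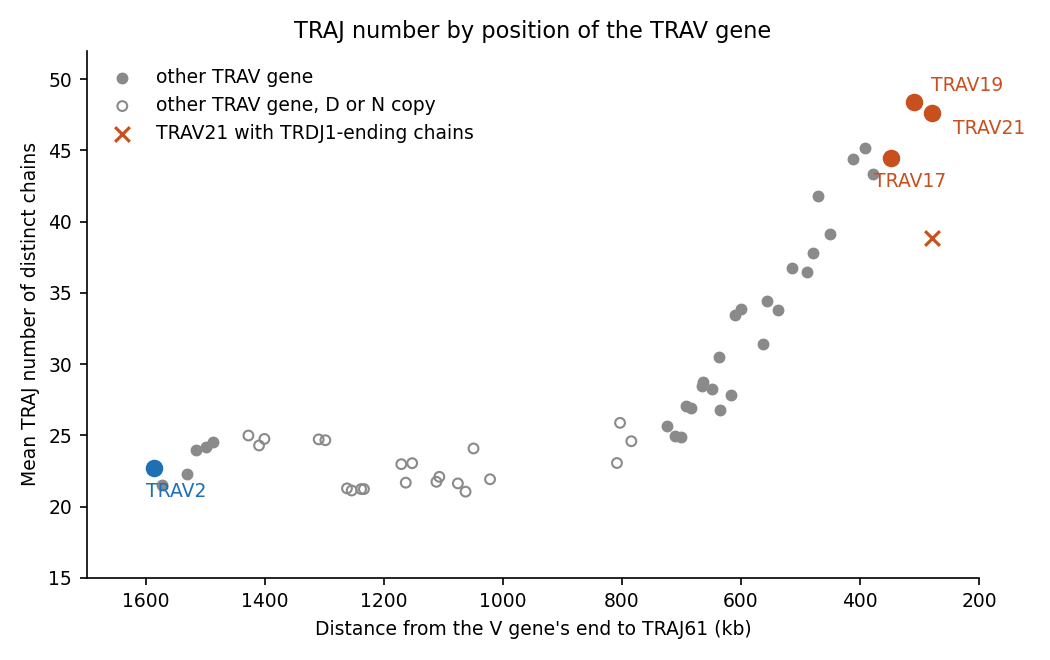
Mean TRAJ number of the distinct chains of each TRAV gene with at least 200 chains (54 genes) against the distance from its end to TRAJ61 in kb, the 5′ end of the locus at the left. TRAV2 lies on a flat stretch between 21.1 and 25.9, while TRAV17, TRAV19 and TRAV21 sit at the top of a rise that begins about 700 kb from TRAJ61, and the cross shows TRAV21 at 38.9 with its TRDJ1-ending chains kept.

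The most used segments differed between the ends. Distal chains used TRAJ23 (9.29%) and TRAJ31 (7.61%) most often, followed by TRAJ27 and TRAJ26 with 48 chains each (7.31%). The proximal shares of these 4, without the TRDJ1-ending chains, were 0.58%, 0.745%, 0.456% and 0.538%. Proximal chains then used TRAJ56 (12.5%), TRAJ57 (12.05%) and TRAJ49 (10.4%) most often. Of the 657 distal chains, 0.152% used TRAJ56, and TRAJ57 and TRAJ49 were not seen. With the TRDJ1-ending chains kept, TRAJ22 headed the proximal list at 15.8%. The largest differences between the ends were for TRAJ23, TRAJ31 and TRAJ27 on the distal side and for TRAJ56, TRAJ57 and TRAJ49 on the proximal side, except that TRAJ22 replaced TRAJ49 with the TRDJ1-ending chains kept.

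**Figure D4:**
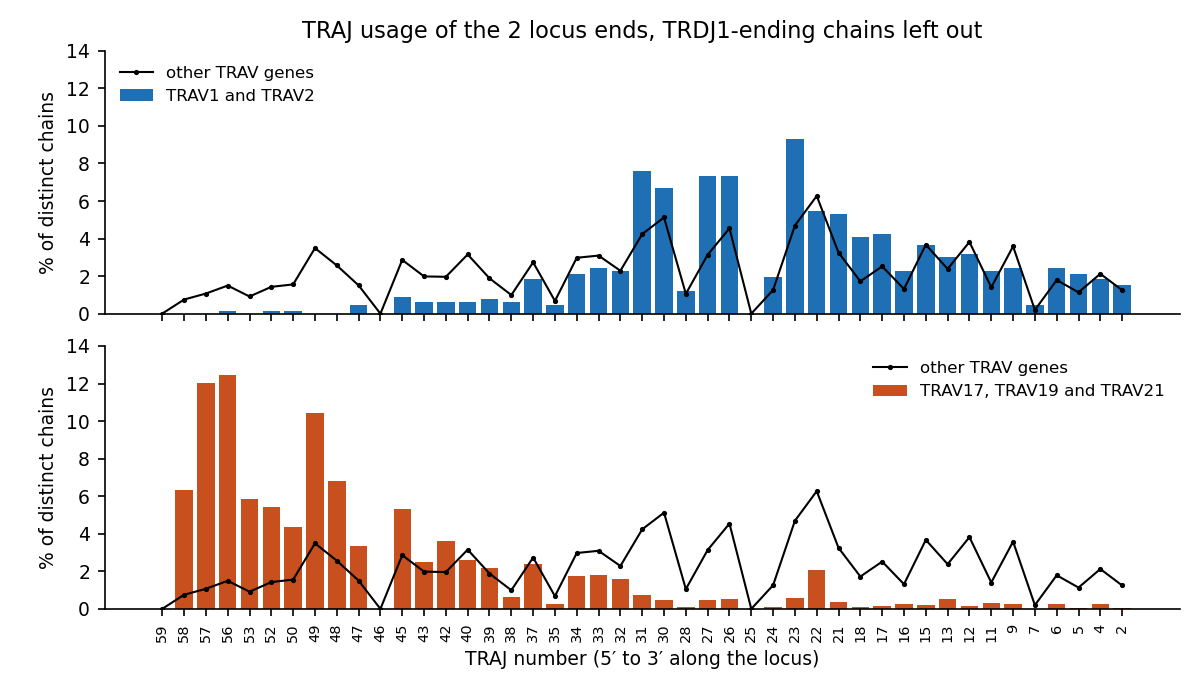
Share of distinct chains using each TRAJ segment, ordered 5′ to 3′ from the left, for TRAV1 and TRAV2 (upper bars) and TRAV17, TRAV19 and TRAV21 (lower bars), with other TRAV genes as a black line and TRDJ1-ending chains left out. Distal bars are tallest from TRAJ31 to TRAJ21 and proximal bars from TRAJ58 to TRAJ48.

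TRAJ usage was most like that of the distal end in TRAV3-1, TRAV6-1 and TRAV5-1, with Jensen-Shannon distances of 0.192, 0.195 and 0.203 against a median of 0.329 over 52 other genes. On this scale 0 means identical usage and 1 no shared segment. The proximal end was most like TRAV14-3 (0.261), TRAV16 (0.313) and TRAV3-4 (0.333), with a median of 0.64. Leaving out the TRDJ1-ending chains kept the same 3 genes on each side, and the proximal distances became 0.206, 0.255 and 0.296. The 2 ends lay 0.774 apart, or 0.795 without the TRDJ1-ending chains.

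Usage of the ends was taken as the share of TRA barcodes in each table. Whether these shares are low or high among TRAV genes was not tested. The distal genes took 0.321% to 4.46% of TRA barcodes and the proximal genes 1.14% to 4.29%. TRAV1 was the rarest member, with 0 to 17 barcodes per table. It had no barcode in the mouse-160A thymus and mouse-155C spleen tables (upper limits from 0 counts 0.0913% and 0.0995%). TRAV2 ranged from 0.64% to 1.03% in the thymus tables and from 0.285% to 4.21% in the second tissues, with medians of 0.801% and 0.805%. TRAV17 had medians of 0.699% and 0.673%, and TRAV19 had 1.27% and 1.13%. These 4 genes were each higher in the thymus in 4 of 7 animals. By distinct chains TRAV17 went the other way, higher in the thymus in 1 of 7 animals, with medians of 0.858% in the thymus and 0.975% in the second tissues.

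TRAV21 differed from the other 4 before the delta joins were removed. Its share was 1.68% to 2.10% in the thymus tables and 0.748% to 1.49% in the second tissues, and it was higher in the thymus in 7 of 7 animals. Of 61 TRAV genes with at least 100 barcodes, 9.84% were higher in the thymus in all 7 animals and 0% were lower in all 7. Without the TRDJ1-ending chains TRAV21 had medians of 1.04% and 0.768% and was higher in the thymus in 6 of 7 animals, and 6.56% of genes were then higher in all 7. By distinct chains TRAV21 without these joins was higher in the thymus in 5 of 7. The proximal end as a whole went from 7 to 5 of 7 animals, and the distal end was at 5 of 7 with or without them. By distinct chains without the TRDJ1-ending ones, the proximal end was higher in the thymus in 4 of 7 animals.

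The highest distal share came from 1 chain. In the mouse-160C tumor table TRAV2 had 290 barcodes, of which 271 carried the same TRAV2-TRAJ27 chain. This chain had 365 barcodes in all, 35.3% of TRAV2, and the 94 outside that table lay in all 13 other tables. By distinct chains TRAV2 ranged from 0.701% to 1.02% in the second tissues, inside the thymus range of 0.543% to 1.14%. In the mouse-160C tumor table, 175 of the 271 had a TRB chain and 161 of these shared TRBV14-TRBJ2-7 with 1 CDR3. A second TRA chain was listed in 139, and in 136 of these it was the same TRAV9D-3-TRAJ31 chain.

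At the proximal end the most frequent chains took smaller shares. The most frequent TRAV19 chain, TRAV19-TRAJ49, had 108 barcodes, 8.35% of the gene, with 87 in the mouse-160C tumor table. For TRAV17 and TRAV21 the most frequent chain had 22 barcodes (2.85%) and 15 barcodes (1.07%). For TRAV1 it was a TRAV1-TRAJ26 chain with 17 of 62 barcodes (27.4%), all in the mouse-160C tumor table.

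For each gene the nucleotide CDR3 found in most animals is shown, ties settled by the number of barcodes, as an example of its joins. No TRAV1 chain was found in more than 1 animal. Capitals mark bases that match the germline V segment at the start and the germline J segment at the end, and lower case marks the bases between.
TRAV1-TRAJ26: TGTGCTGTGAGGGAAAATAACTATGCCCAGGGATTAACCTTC
TRAV2-TRAJ27: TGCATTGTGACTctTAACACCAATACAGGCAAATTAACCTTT
TRAV17-TRAJ57: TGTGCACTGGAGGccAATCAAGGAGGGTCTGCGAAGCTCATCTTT
TRAV19-TRAJ49: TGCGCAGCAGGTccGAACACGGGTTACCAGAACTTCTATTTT
TRAV21-TRAJ57: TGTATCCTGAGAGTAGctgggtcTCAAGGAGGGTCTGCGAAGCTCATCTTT

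The TRAV2 and TRAV19 sequences were found in 7 animals, the TRAV17 and TRAV21 sequences in 4 and the TRAV1 sequence in 1. The TRAV1 join had 0 bases that were not germline, the TRAV2, TRAV17 and TRAV19 joins had 2 and the TRAV21 join had 7. Over assembled member chains, each nucleotide CDR3 was counted once per table, and chains with too short a V or J match were left out. The median was 3 bases that were not germline at the distal end (514 of 519 chains). It was 2 at the proximal end (1899 of 1966 chains), without the TRDJ1-ending ones. None were found in 10.1% of distal and 16.8% of proximal chains. The TRAV21 chains that ended in TRDJ1 had a median of 21 bases between the V and Trdj1 matches. This count includes germline bases of delta diversity segments such as Trdd2, so it is not a count of non-germline bases. Without the TRDJ1-ending ones, chains (V, J and CDR3 residues) seen in at least 2 animals made up 0 of 36 for TRAV1 and 76 of 492 (15.4%) for TRAV2. They made up 88 of 500 (17.6%) for TRAV17, 159 of 629 (25.3%) for TRAV19 and 124 of 616 (20.1%) for TRAV21. The share over all TRAV genes is not given here, so whether the members differ from other genes in this was not tested. Animals were processed in shared sublibraries, and whether barcodes of an expanded chain passed into other tables was not tested.

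TRAV1 joined to TRAJ33 is the chain of mucosal-associated invariant T (MAIT) cells. It was found in 1 of 62 TRAV1 barcodes (1.61%, 95% exact interval 0.0408 to 8.66%). TRAV1 in these tables was therefore nearly all of other joins.

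The share of barcodes with a second TRA chain did not differ between the ends beyond the spread between animals. Pooled over tables, a second chain was listed in 253 of 1097 distal barcodes (23.1%), 506 of 3462 proximal barcodes (14.6%) and 15.3% of the 103323 other barcodes. The distal value rested on the TRAV2-TRAJ27 chain, since the mouse-160C tumor table had 46.3% (142 of 307) and the 36 distal barcodes of that table without this chain had 8.33%. Per animal the distal share minus the proximal share averaged 1.64 ± 10.4 percentage points (n = 7, positive in 3 animals, exact sign-flip p = 0.922, adjusted p = 0.953). The difference was -2.10 without mouse-160C, 0.694 without the TRDJ1-ending chains and 0.295 without the TRAV2-TRAJ27 chain. The range was -7.39 to 24.04, so the 7 animals do not exclude differences of several points. Distal minus other genes was 1.29 ± 9.54 (positive in 2 of 7, exact p = 0.938, adjusted p = 0.953) and changed sign without mouse-160C (-2.12). Proximal minus other genes was -0.653 ± 2.4 (positive in 3 of 7, exact p = 0.469, adjusted p = 0.75) and 0.171 ± 2.76 without the TRDJ1-ending chains. With at least 2 TRA transcripts required it was -3.06 (adjusted exact p = 0.0625).

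The second chain's own TRAJ segment varied with the first chain's V gene. Second chains with the same V and J gene as the first were 4.38% of those of distal, 9.8% of proximal and 12.1% of other barcodes, and these were left out together with TRDJ1-ending first or second chains, a rule chosen after the values were seen. Counting each distinct pair once per table, second chains had a mean TRAJ number of 26.4 ± 12.9 after a distal first chain (105 pairs), 34.8 ± 14.7 after a proximal one (406 pairs) and 28.4 ± 13.2 after another one (11858 pairs). The mean was higher after a proximal chain than after another chain in 7 of 7 animals, by 2.25 to 10.8. It was lower after a distal chain in 7 of 7 animals, by differences of -15.2 to -0.05, and 2 of these animals had 2 pairs each. Single tables with at least 12 distal pairs were split. The mean after a distal chain was higher in the mouse-160C thymus table (31.6 against 28.7 after another chain). It was also higher in the mouse-164C tumor table (31.2 against 28.7). It was lower in the mouse-160B tumor, mouse-164B thymus and mouse-164C thymus tables. No p is given, because this comparison was made after seeing the data.

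Second chains after TRAV21 had the highest mean of the proximal genes, 37.5 ± 15.8 over 148 pairs, against 35.5 ± 13.4 over 102 pairs for TRAV17 and 31.9 ± 13.96 over 156 pairs for TRAV19. Of the second chains after a proximal chain, 26 of 406 (6.4%, 95% exact interval 4.23 to 9.24%) were themselves TRAV17, TRAV19 or TRAV21, against 2.34% (2.07 to 2.62%) after another gene and 3 of 105 (2.86%, 0.593 to 8.12%) after a distal gene. The share was higher after a proximal than after another chain in 6 of 7 animals. In 12 of the 26, both chains used the same V gene. Within proximal pairs the TRAJ numbers of the first and second chain had a correlation of 0.01 (406 pairs). It was 0.18 in distal pairs (105 pairs) and 0.23 in pairs of other genes (11858 pairs). Pairs of one table share its barcodes and depth, and the part of multiplets in these pairs was not tested. A second TRB chain was listed in 14.7% of distal, 12.8% of proximal and 13.2% of other barcodes.

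**Figure D5:**
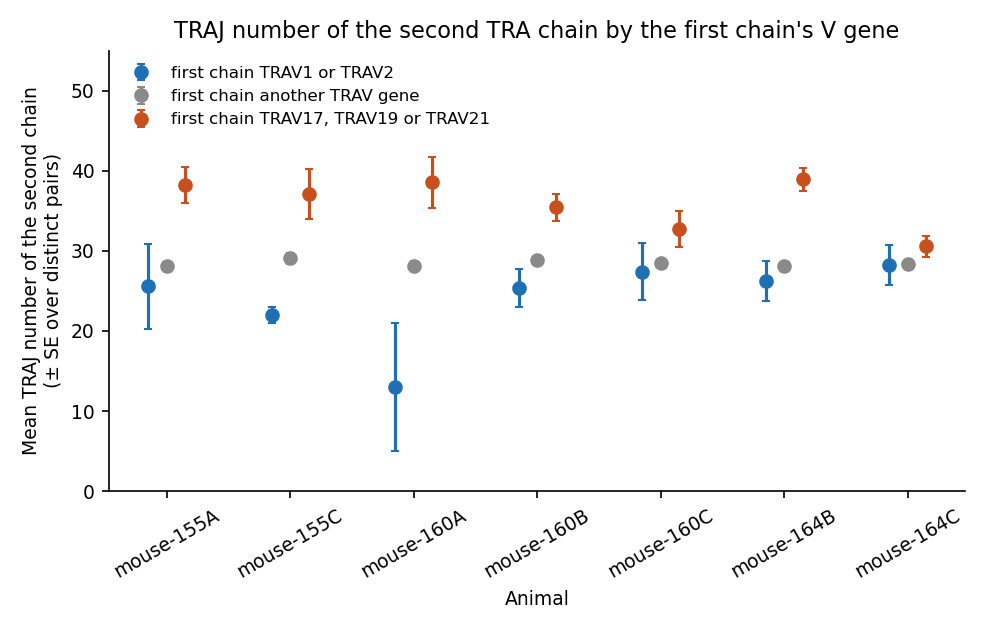
Mean TRAJ number of the second TRA chain in each animal, by whether the first chain used TRAV1 or TRAV2 (blue), TRAV17, TRAV19 or TRAV21 (orange) or another gene (grey), with standard errors over distinct pairs. Orange lies above grey in all 7 animals, by 2.25 to 10.8, and the blue points of mouse-155C and mouse-160A rest on 2 pairs each.

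CDR3 length depended on the delta joins. Distal CDR3s averaged 14.5 ± 1.35 residues and proximal ones 14.8 ± 2.23 (SD over distinct chains), a difference of -0.34 ± 0.354 over the animals (n = 7, negative in 7 of 7, exact sign-flip p = 0.0156, adjusted p = 0.03125). Without the TRDJ1-ending chains the proximal mean was 14.3 ± 1.7 and the difference turned to 0.271 ± 0.22 (positive in 7 of 7, exact p = 0.0156, adjusted p = 0.03125). With those chains kept, the adjusted exact p also missed 0.05 when at least 2 transcripts (0.208) or a TRB chain (0.667) were required, in spleen and tumor tables alone (0.857), and when multiplets were kept, any 1 animal was left out or the TRAV2-TRAJ27 chain was left out (0.0625 each). Among the members without those chains TRAV19 had the shortest CDR3s (13.8 ± 1.32) and TRAV21 the longest (14.9 ± 1.96).

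TRA transcripts per barcode did not separate the ends. The difference of mean log2 transcript counts, distal minus proximal, was 0.02 ± 0.17 (n = 7, positive in 3 of 7, exact sign-flip p = 0.953, adjusted p = 0.953). The largest value was 0.40 in mouse-160C. One TRA transcript stood behind 45.1% to 72.1% of all TRA barcodes per table.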

How the data were processed

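TCR libraries were made by the study with the Parse Evercode TCR kit, a split-pool barcoding of fixed cells. The authors deposited a barcode table, an assembled-chain table and a clonotype table (not used here) for each of 14 combinations of animal and tissue. Transcript counts in the deposited tables are raw molecules per chain, and the deposited percent identity gives the match to the called J segment. The submitters' processing notes name GRCm39. The aligner is not given in the sources used here. Gene positions and sequences were taken from GRCm39 with GENCODE M39 (the build of the notes).

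Barcodes marked as multiplets were left out (22066 of 129948 with TRA). No barcode was shared between tables, which held 2523 to 20511 TRA barcodes at a median of 1 or 2 transcripts. Intervals are exact Clopper-Pearson at 95% and the limit behind a 0 is 3 counts, both for counting error only. Tables needed 10 chains or barcodes per end. Differences were tested over 7 animals by an exact two-sided sign-flip test with Benjamini-Hochberg adjustment over 8 tests, checked on simulated data. The assembled chains covered 79.8% of TRA barcodes. Python 3 tools were pandas, NumPy and SciPy.

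The members, lists and tests were chosen with earlier results of these data known. The text names all 5 members. It also names the 3 V genes with the most similar TRAJ usage per end, the 3 most used and most different TRAJ segments, and the CDR3 of each member found in most animals. Other chains and TRAV15-1 and TRAV15D-1 were named after their values were seen. Alternatives covered transcript number, multiplets, TRB, tissue, counting unit and each animal left out.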

Additional observations from a re-analysis of the deposited data

Results flagged for a closer look

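In mouse-160C, 3 differences between the ends stood apart from the other 6 animals, by a gap larger than Dixon's 95% limit for 7 values, which chance passes in about 1 in 20 groups. They were the second TRA share of distal minus proximal barcodes (24.04 percentage points), that of distal minus other barcodes (21.8 points) and the log2 TRA transcripts of distal minus proximal barcodes (0.40). The TRAV2-TRAJ27 chain made up 271 of the 307 distal barcodes of this animal's tumor table.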

How the results depend on the processing

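Of 140 recomputed values, 91 were counted as unchanged. A test value had to keep its direction and its side of the threshold, and a usage count had to stay within 1.5 times the main count. With 6 animals the smallest exact p is 0.03125, so leaving out any 1 animal put the adjusted p of the TRAJ and CDR3 length differences at 0.0625, and their loss of a call there says nothing about size. The 3 TRAJ differences then ran from -19.9 to -19.1 (distal minus proximal), -5.79 to -5.36 (distal minus other) and 14.02 to 14.76 (proximal minus other). With at least 2 TRA transcripts they were -21.2, -5.67 and 15.2, and in spleen and tumor tables alone -21.8, -5.15 and 16.6, again past no adjusted threshold (0.0625 and 0.0833). CDR3 length, distal minus proximal, was -0.394 to -0.22 with 1 animal left out, -0.161 with at least 2 transcripts, -0.29 with multiplets kept, -0.0792 with a TRB chain required, -0.0804 in spleen and tumor tables, -0.325 without the TRAV2-TRAJ27 chain and 0.271 without the TRDJ1-ending chains, the last reversed. The second TRA share passed the adjusted threshold in no setting. With 1 animal left out its distal minus proximal difference ran from -2.10 (without mouse-160C) to 3.14, and its distal minus other difference from -2.12 (without mouse-160C) to 2.87. Over the other settings the first ran from 0.274 (thymus tables) to 4.73 (spleen and tumor tables). The second was -1.45 in thymus tables, -0.119 by distinct chains, -0.0534 without the TRAV2-TRAJ27 chain and at most 6.06, in spleen and tumor tables. Proximal minus other was 0.415 in spleen and tumor tables and 0.171 without the TRDJ1-ending chains, -1.35 to -0.268 with 1 animal left out, -1.72 in thymus tables, -1.59 by distinct chains and -3.06 with at least 2 transcripts. Transcripts were -0.0101 in thymus tables and -0.037 to 0.0448 with 1 animal left out, the lowest without mouse-160C. Leaving out the TRDJ1-ending chains, the TRAV2-TRAJ27 chain or second chains with the V and J of the first were alternatives chosen after seeing the data. The numbers of animals with the higher thymus share stayed within 1.5 times when 1 choice was changed at a time, at 4 to 5 of 7 (distal) and 5 to 7 of 7 (proximal). Counting distinct chains without the TRDJ1-ending ones, 2 changes together, gave 4 of 7 for the proximal end. TRAV1 rests on 36 distinct chains, and no test was made on it alone.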
